A study of Mus musculus with 6 samples.

Results

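The NLRP3 inflammasome and the cytokines of the interleukin-1 (IL-1) family that it releases were followed across 10 genes: the sensor Nlrp3, the adaptor Pycard, the proteases Casp1 and Casp4, the pore gene Gsdmd, the cytokines Il1a, Il1b and Il18, and the secreted antagonists Il1rn and Il18bp. The genes were taken by name, and all 10 had a row among the 23491 gene symbols of the deposited read counts. All 10 passed the filter on low counts that left 14727 genes for testing. The RNA came from cells of the mouse cerebellum pulled down on CD11b MicroBeads. CD11b is carried by microglia and also by monocytes, neutrophils and other macrophages. Cells of 3 poly(I:C) libraries came from Fmr1 knock out mice injected intraperitoneally with poly(I:C), a synthetic double-stranded RNA that mimics viral infection. Cells of 3 saline libraries came from Fmr1 knock out mice given saline, called sham in the sample titles. Every library therefore carries the Fmr1 knock out, a model of fragile X syndrome, and no group with intact Fmr1 was analysed here. The labels give no age, dose, time after injection or type of Fmr1 allele. They do not say whether the libraries of a group came from separate animals, so the spread behind each p-value is that of these samples and may be technical.

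An inflammasome is a protein complex that forms in the cytosol when a sensor detects infection or damage. The adaptor ASC, the product of Pycard, links the sensor to caspase-1, which cleaves the inactive precursors of IL-1 beta and IL-18 and cuts gasdermin D so that it forms pores in the plasma membrane. In macrophages, including microglia, transcription of Nlrp3 and Il1b is usually raised first by a priming signal such as a Toll-like receptor ligand, and cleavage follows only after a further stimulus. Read counts record the supply of these transcripts and say nothing of complex assembly, cleavage or release.

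Library totals lay between 33710545 and 33781938 counts in the poly(I:C) group and between 34608620 and 34899835 counts in the saline group. Values are in CPM, counts scaled to libraries of equal size, with TMM correction for the composition of each library, and 3 counts correspond to at most 0.0890 CPM before that scaling. Fmr1 itself had reads in all libraries, at 43.9 to 62.6 CPM with poly(I:C) and 37.8 to 40.5 CPM with saline, and without a group of intact Fmr1 they check neither genotype nor labels. Microglial markers were abundant in every library, with 9 markers summing to between 28131 and 38917 CPM with poly(I:C) and between 35722 and 41560 CPM with saline. Transcripts of other cells were present too. Saline replicate 1 stood apart with 21170 CPM over 12 neutrophil markers, against sums of 3670 and 3665 CPM in saline replicates 2 and 3 and 1786 to 3152 CPM with poly(I:C). Of these markers Csf3r varied least, at 945, 1315 and 1251 CPM with poly(I:C), against 1359, 1291 and 1331 CPM with saline. It formed most of the sum in poly(I:C) replicates 2 and 3, so the sums understate how far the other markers differed. Poly(I:C) replicate 1 had the highest sum of 8 choroid plexus markers, at 19249 CPM, against 7620 and 9264 CPM in the other poly(I:C) libraries and 3941 to 8406 CPM with saline. In such bulk samples, fewer cells of a type and less RNA per cell cannot be told apart.

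Sequence upstream of the genes was read from RefSeq promoters of build GRCm38.p6, which is older than the GRCm39 build named in the submitters' processing notes. Entries were found for 9 of the 10 genes, with 13 start sites in all, and the 250 bases before each start were searched on each strand. Gsdmd had no entry, so its upstream sequence was not searched. The letters searched were GAAANNGAAA for the interferon-stimulated response element (ISRE) core, TTCNNNGAA for the gamma-activated sequence (GAS) core, TGANTCA for AP-1, and the NF-kB motif. Of 32851 promoters of all genes, 2.98% held the ISRE core, 7.02% the GAS core, 6.75% the AP-1 letters and 7.25% the NF-kB motif. Counted by gene, with a match at any start site, the shares of 27025 genes were 3.46%, 8.13%, 7.82% and 8.23% in the same order. Neither the ISRE core nor the GAS core was found in these windows of the 9 genes. NF-kB matches were found for Casp4, at 2 separate places of which the one farther from the start holds a pair of overlapping matches, and at 1 start site of Nlrp3. AP-1 matches were found for Il1a and at 1 start site of Il1rn. The windows of Il18, the only gene of the 10 that was called, of Casp4 and Il1a, which hold matches and had higher values in every poly(I:C) library, and of Il1b, the best known NLRP3 product, are shown with matches in capitals, 5′ to 3′ on the strand of the gene. Of the genes not shown, Casp1 and Il18bp were also higher in every poly(I:C) library and held no match. Nlrp3 and Il1rn held matches and had groups that overlapped. A match is a run of letters and not a site shown to be bound, and the windows without capitals lack only these letters.
Il18 (chr9:50554450-50554699, plus strand): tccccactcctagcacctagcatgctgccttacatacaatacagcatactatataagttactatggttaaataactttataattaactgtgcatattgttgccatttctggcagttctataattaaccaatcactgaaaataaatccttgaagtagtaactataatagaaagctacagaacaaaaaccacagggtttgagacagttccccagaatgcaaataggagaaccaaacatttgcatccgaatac
Casp4, first start site (chr9:5308599-5308848, plus strand): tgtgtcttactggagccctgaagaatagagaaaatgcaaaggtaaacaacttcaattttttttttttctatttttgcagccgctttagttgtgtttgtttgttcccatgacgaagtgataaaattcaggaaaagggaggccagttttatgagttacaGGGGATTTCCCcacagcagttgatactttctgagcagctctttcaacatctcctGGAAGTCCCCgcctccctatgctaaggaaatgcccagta
Il1a (chr2:129309973-129310222, minus strand): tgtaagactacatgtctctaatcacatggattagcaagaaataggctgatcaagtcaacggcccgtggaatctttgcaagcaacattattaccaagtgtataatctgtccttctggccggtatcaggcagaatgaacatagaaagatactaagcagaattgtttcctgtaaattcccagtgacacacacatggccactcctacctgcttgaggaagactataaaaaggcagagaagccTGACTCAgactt
Il1b (chr2:129371140-129371389, minus strand): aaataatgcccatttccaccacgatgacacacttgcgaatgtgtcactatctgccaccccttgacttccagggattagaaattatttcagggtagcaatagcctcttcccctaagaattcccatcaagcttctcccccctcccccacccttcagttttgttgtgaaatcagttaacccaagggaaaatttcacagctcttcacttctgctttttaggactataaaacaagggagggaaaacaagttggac

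Setting poly(I:C) against saline addresses how a viral mimic given to the whole animal altered the stock of inflammasome and IL-1 family transcripts in these cells. Il18 rose 1.60-fold and was the only gene of the 10 called, at an adjusted p under 0.05 in edgeR's quasi-likelihood test. None of the 10 was called lower, and 0 were lower at an unadjusted p under 0.05 in edgeR or called lower in DESeq2 or limma-voom. Over all tested genes, 0.957% were called in either direction and 0.883% were called higher. Casp1, Casp4, Il1a and Il18bp were 1.49-fold to 2.18-fold higher by their fitted values but did not pass in edgeR with all 6 libraries. Each passed in limma-voom with quality weights, and each but Casp4 in DESeq2, where more of all tested genes were called too. The sensor, adaptor and pore genes Nlrp3, Pycard and Gsdmd, with Il1b and its antagonist Il1rn, had groups that overlapped. In 5 of the 10 genes every poly(I:C) library stood above every saline library, against 14.0% of all tested genes (28.4% are separate in either direction), and the same 5 had an unadjusted p under 0.05, against 10.5% of all tested genes that were higher at that level (21.3% in either direction). The median log2 fold change of the 10 was 0.41, beside 0.0098 over all tested genes. The genes were chosen with earlier results of these data known, so these counts describe the set only.

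**Figure D1:**
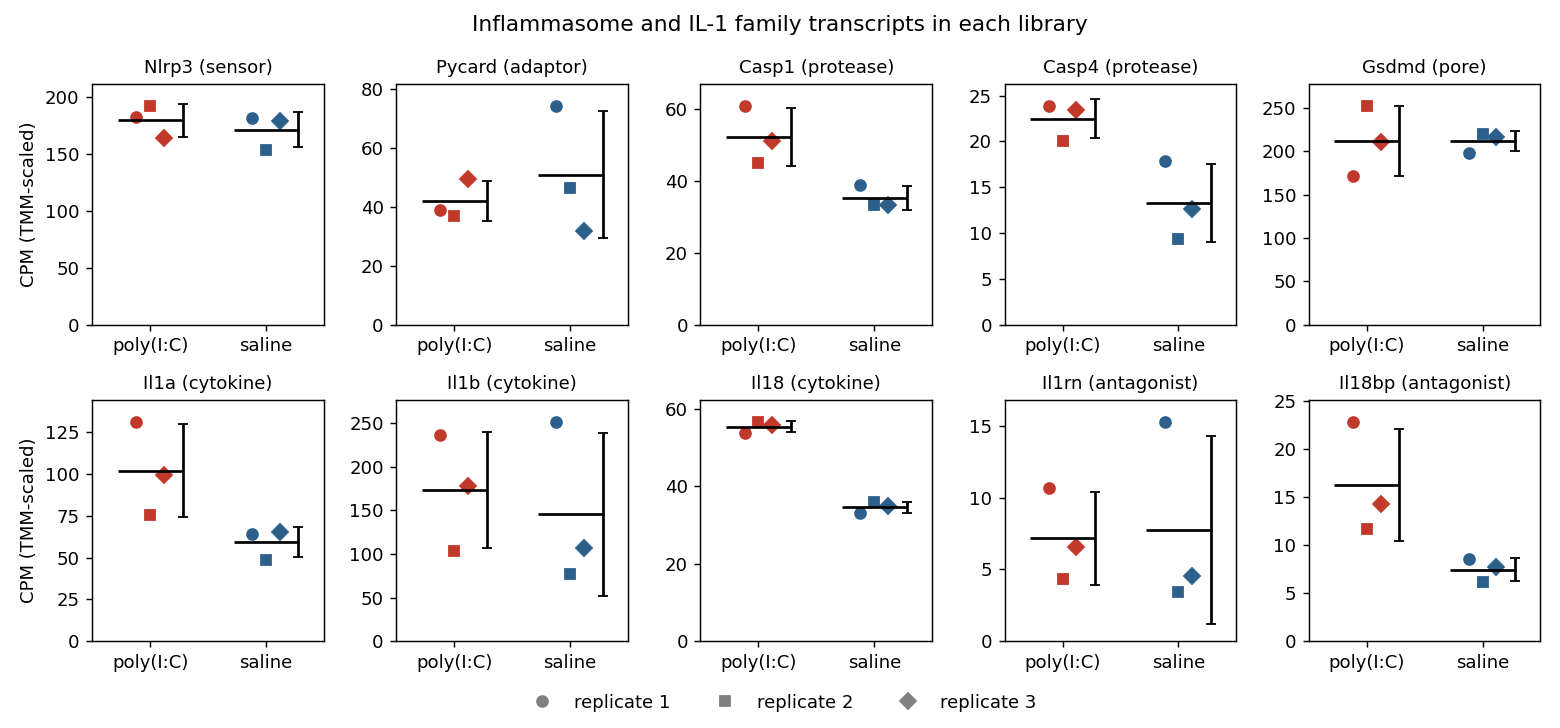
CPM after TMM scaling (y axis, from 0, its own scale in each panel) in the 3 poly(I:C) libraries (red, left) and the 3 saline libraries (blue, right) for each of the 10 genes; shapes mark the replicate number, bars the mean and error bars the SD. The Il18 values of each group sit within 3 CPM of each other and the groups do not overlap, while Il1b, Il1rn and Pycard are highest in saline replicate 1.

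Among the parts of the complex, Nlrp3, which senses potassium efflux and membrane damage, had levels of 182, 193 and 164 CPM in replicates 1, 2 and 3 of the poly(I:C) group, against 181, 154 and 179 CPM in saline replicates 1, 2 and 3. The groups overlapped, and the log2 fold change was 0.07 (SE 0.10, adjusted p = 0.702), with a 95% interval from −0.17 to 0.31. Nlrp3 differences above 1.24-fold higher or 1.13-fold lower lay outside that interval.
Pycard, whose product ASC bridges sensor and caspase, had 39.1, 37.0 and 49.6 CPM in the poly(I:C) libraries, against 74.4, 46.5 and 31.8 CPM in the saline libraries. The groups overlapped and saline replicate 1 was the highest of all. The log2 fold change of −0.28 (SE 0.30, adjusted p = 0.586) changed sign to 0.09 without that library.
Gsdmd, the pore-forming substrate, had 172, 253 and 211 CPM with poly(I:C), against 198, 219 and 217 CPM with saline. All saline values lay inside the range of the poly(I:C) values. For Gsdmd the log2 fold change was 0.0022 (SE 0.14, adjusted p = 0.994), with a 95% interval from −0.34 to 0.34, which still holds differences of up to 1.27-fold higher and 1.26-fold lower.

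Both protease genes had groups that were separate, and neither passed in edgeR with all 6 libraries. Casp1, which encodes the enzyme that activates IL-1 beta and IL-18, had 60.9, 44.8 and 50.9 CPM with poly(I:C), against 38.9, 33.3 and 33.2 CPM with saline. The groups did not overlap. Casp1 averaged 52.2 ± 8.10 CPM with poly(I:C) and 35.1 ± 3.28 CPM with saline (SD, n = 3 each), and the log2 fold change of 0.57 (SE 0.14) missed the threshold in edgeR (adjusted p = 0.129).
Casp4, which in the mouse encodes caspase-11, a direct sensor of cytosolic lipopolysaccharide that cuts gasdermin D without the NLRP3 complex, had 23.9, 20.1 and 23.5 CPM in the poly(I:C) libraries, against 17.8, 9.38 and 12.7 CPM in the saline libraries. Its groups were also separate, with saline replicate 1 the closest to the poly(I:C) values. For Casp4 the log2 fold change was 0.76 (SE 0.24, adjusted p = 0.172), and 1.02 without saline replicate 1. Leaving out replicate 1 of each group, Casp4 and Casp1 passed in edgeR, with log2 fold changes of 1.01 and 0.55 and adjusted p of 0.0304 and 0.0377.
In the RefSeq gene order Casp1, Casp4 and Casp12 are consecutive protein-coding genes on chromosome 9, so these caspase genes also share a neighbourhood. Casp12, which in the mouse encodes a caspase linked to endoplasmic reticulum stress, had 4.63, 3.46 and 5.15 CPM with poly(I:C), against 2.01, 2.80 and 1.21 CPM with saline. These low values were separate between the groups as well (log2 fold change 1.14, SE 0.37, adjusted p = 0.182 in edgeR). Close paralogs can share reads, and the counting mode is not given in the sources used here, so the division of counts among the caspase genes is uncertain.

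Relative to Nlrp3, per length of exon, Casp1 stood at 0.904, 0.631 and 0.840 in the poly(I:C) libraries, against 0.582, 0.586 and 0.502 in the saline libraries. The ratio was higher in every poly(I:C) library than in any saline library. Of 7 ratios computed between the 10 genes it was the only one that separated, and 6 overlapped, among them Pycard to Nlrp3, Casp4 to Casp1, Il1a to Il1b and Il1b to Il18. No share over other ratios was computed, and of single tested genes 28.4% were separate in either direction. Casp1 itself was separate and Nlrp3 overlapped, so the Casp1 to Nlrp3 ratio is not independent of the Casp1 values. An exact permutation test of 3 against 3 cannot give a two-sided p below 0.10, so this ratio was not tested.

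Of the cytokines, Il18 was the most even gene of the set. Its level was 53.8, 56.6 and 56.0 CPM in replicates 1, 2 and 3 of the poly(I:C) group, against 33.2, 36.0 and 34.9 CPM in saline replicates 1, 2 and 3. The coefficient of variation was 2.67% among poly(I:C) libraries and 4.10% among saline libraries, the lowest of the 10 genes in each group. Poly(I:C) over saline gave a log2 fold change of 0.68 (SE 0.081, 95% interval 0.49 to 0.87, adjusted p = 0.0146 in edgeR). IL-18 is known for driving interferon gamma production by lymphocytes, and its transcript is made by resting macrophages without priming. Without any single library the log2 fold change of Il18 stayed between 0.64 and 0.72, but the call was lost when poly(I:C) replicate 3 was left out (adjusted p = 0.130) and when saline replicate 1, 2 or 3 was left out (adjusted p = 0.0540, 0.0794 and 0.122). The call was kept without poly(I:C) replicate 1 or 2, and with replicate 1 of each group left out (adjusted p = 0.0103).

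Il1a encodes an alarmin that is active without cleavage and is released from dying cells. It had 131, 75.4 and 99.4 CPM with poly(I:C), against 63.9, 48.8 and 65.3 CPM with saline. The groups did not overlap, and poly(I:C) replicate 1 was the highest. The log2 fold change of 0.78 (SE 0.21) missed the threshold in edgeR (adjusted p = 0.154), and it was 0.58 without poly(I:C) replicate 1. Poly(I:C) replicate 1 is also the library with the highest sums of choroid plexus and endothelium markers and the lowest sum of microglial markers. Within its group it had the highest neutrophil, monocyte and border macrophage sums too. The part of these cells in the Il1a value was not tested.

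Il1b encodes the main pro-inflammatory product of the complex and neighbours Il1a on chromosome 2. It had 237, 104 and 178 CPM in the poly(I:C) libraries, against 251, 77.5 and 107 CPM in the saline libraries. The highest of all 6 values was in a saline library, and libraries of 1 group differed by up to 2.28-fold with poly(I:C) and 3.24-fold with saline. The log2 fold change of 0.25 (SE 0.48, adjusted p = 0.771) had a 95% interval from −0.88 to 1.38, so neither a rise nor a fall by 1.5-fold lay outside it. It was −0.05 when saline replicate 2 was left out and −0.02 when poly(I:C) replicate 1 was left out, and without saline replicate 1 it was 0.89 (adjusted p = 0.243).

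Of the antagonists, Il18bp, whose soluble product binds and neutralises IL-18, had 22.8, 11.7 and 14.3 CPM with poly(I:C), against 8.52, 6.18 and 7.69 CPM with saline. The groups were separate, and the log2 fold change of 1.12 (SE 0.28) was the highest of the 10 genes without passing the threshold in edgeR (adjusted p = 0.133). It was 0.82 without poly(I:C) replicate 1, the highest library, and the part of other cells in that library was not tested. In GENCODE M21 the exons of Il18bp overlap those of Numa1 on the opposite strand by 80 bases, and Numa1 stood at 271 to 369 CPM with poly(I:C) and 382 to 459 CPM with saline. Libraries of this kind do not mark strand, so reads over those bases cannot be assigned to a strand. Numa1 was lower in every poly(I:C) library and Il18bp higher.
Per exon length, Il18bp stood at 0.144, 0.0702 and 0.0871 of Il18 in the poly(I:C) libraries, against 0.0875, 0.0585 and 0.0751 in the saline libraries. The ratio of antagonist to cytokine overlapped between the groups.

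Il1rn, the gene of the IL-1 receptor antagonist, which occupies the receptor without signalling, had 10.7, 4.31 and 6.55 CPM with poly(I:C), against 15.3, 3.43 and 4.54 CPM with saline. Saline replicate 1 was again the highest and poly(I:C) replicate 1 next. For Il1rn the log2 fold change was −0.11 (SE 0.61, adjusted p = 0.930), with a 95% interval from −1.56 to 1.35, and it was 0.83 without saline replicate 1 (adjusted p = 0.318).
Il1rn and Il1b ranked the 6 libraries in the same order, saline replicate 1, poly(I:C) replicate 1, poly(I:C) replicate 3, saline replicate 3, poly(I:C) replicate 2 and saline replicate 2. Per exon length, Il1rn stood at 0.0226, 0.0208 and 0.0184 of Il1b with poly(I:C), against 0.0305, 0.0222 and 0.0213 with saline. Over the 6 libraries the ratio ran from 0.0184 to 0.0305, while the level of Il1rn itself ran from 3.43 to 15.3 CPM.

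**Figure D2:**
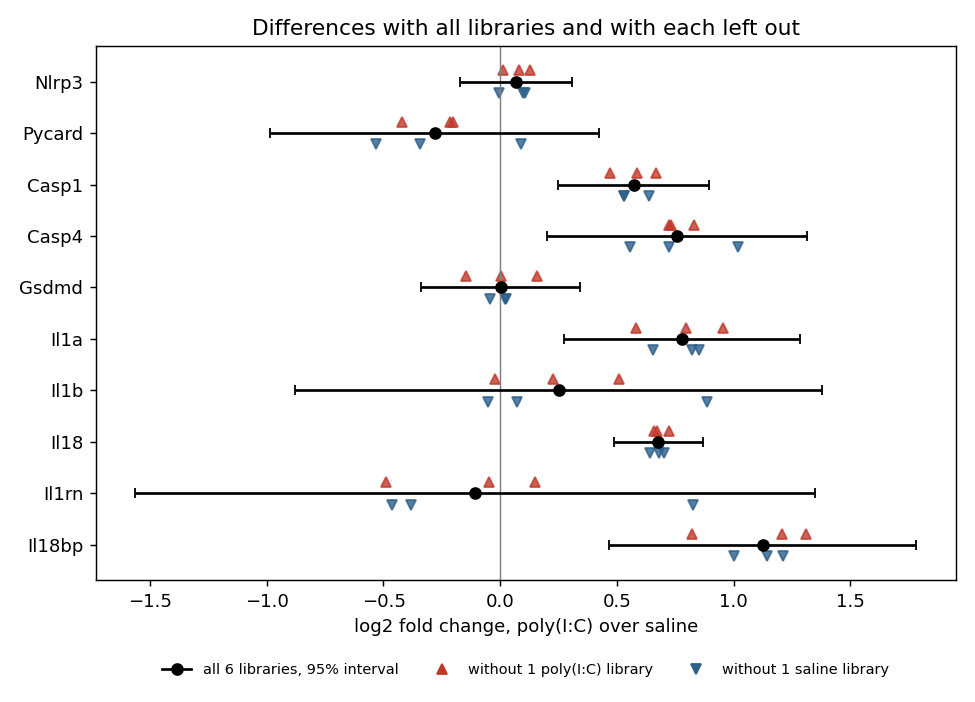
Log2 fold change of poly(I:C) over saline (x axis) for each of the 10 genes, with black points and 95% intervals for the edgeR fit of all 6 libraries and triangles for fits without 1 poly(I:C) library (red, up) or without 1 saline library (blue, down). The triangles of Il18 lie between 0.64 and 0.72, while those of Il1rn run from −0.49 to 0.83.

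Levels were set side by side per kilobase of exon, with lengths from GENCODE M21 on GRCm38, whose gene models may differ from those counted. In the poly(I:C) libraries Il1b averaged 127 ± 49.1 CPM per kb and Gsdmd 118 ± 22.6 CPM per kb (SD, n = 3), and their ranges overlapped. Il18 at 53.8 ± 1.43, Il1a at 51.6 ± 14.1, Nlrp3 at 44.3 ± 3.55 and Casp1 at 34.9 ± 5.41 CPM per kb followed, each overlapping its neighbour in this order. Casp4 stood lower at 15.7 ± 1.47 CPM per kb, separate from Casp1 above it and Il18bp after it. The antagonists Il18bp at 5.38 ± 1.92 and Il1rn at 2.65 ± 1.19 CPM per kb were the lowest, and their ranges overlapped.
In the saline libraries Gsdmd averaged 118 ± 6.44 and Il1b 107 ± 68.5 CPM per kb, again with overlapping ranges. Nlrp3 at 42.2 ± 3.77 CPM per kb stood above Il18 at 33.6 ± 1.38 CPM per kb with no overlap, the reverse of their order with poly(I:C), where the lowest Il18 value of 52.2 exceeded the highest Nlrp3 value of 47.5 CPM per kb. Il1a followed at 30.1 ± 4.64, Casp1 at 23.5 ± 2.19, Casp4 at 9.26 ± 2.96, Il1rn at 2.86 ± 2.42 and Il18bp at 2.47 ± 0.39 CPM per kb. In that order Il18 overlapped Il1a, Il1a overlapped Casp1 and Il1rn overlapped Il18bp, while Casp4 was separate from the genes on either side. The order of Il18 and Nlrp3 rests on exon lengths of 1031 and 4057 bases. In CPM, Nlrp3 stood above Il18 in both groups, with means of 180 against 55.5 with poly(I:C) and 171 against 34.7 with saline.
Pycard was left out of this order because its GENCODE exons sum to 3800 bases while RefSeq gives its whole gene 2495 bases, so its length is uncertain.

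**Figure D3:**
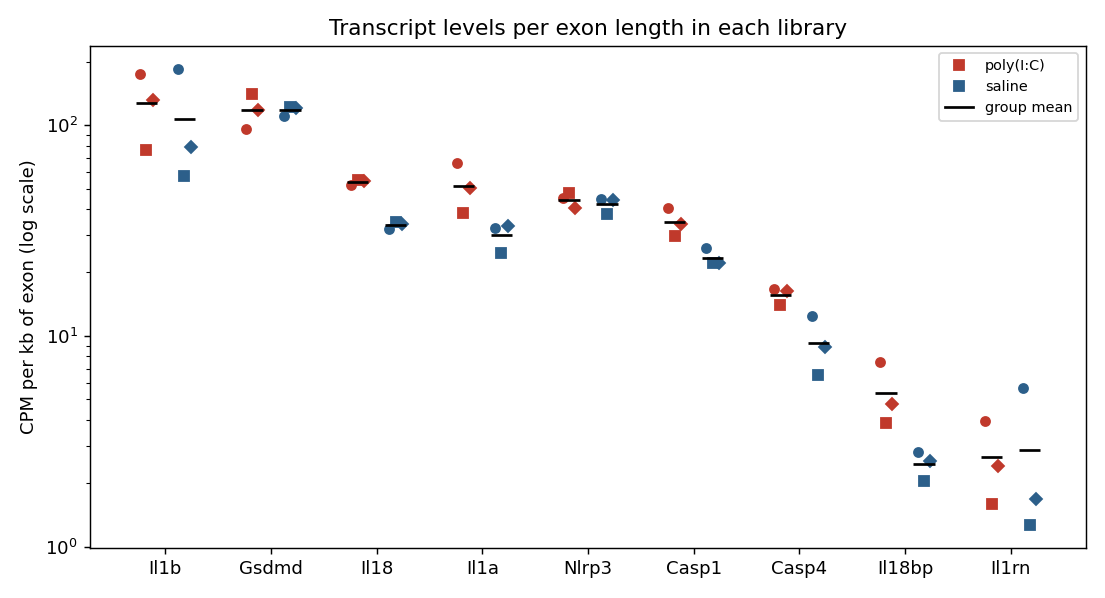
CPM per kb of exon (y axis, log scale) of 9 of the 10 genes, ordered by their mean with poly(I:C), for the poly(I:C) libraries (red, left of each pair) and the saline libraries (blue, right); shapes mark replicates 1 (circle), 2 (square) and 3 (diamond) and bars the mean. Per kb of exon, Il18 with poly(I:C) lies above Nlrp3, while with saline it lies below.

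The summed markers of neutrophils and of monocytes were highest in saline replicate 1, the library that was also highest for Il1b, Il1rn and Pycard. Neutrophils and monocytes are known sources of each of these transcripts. The 12 neutrophil markers, all seen in every library, had a lower sum in every poly(I:C) library than in any saline library. Singly, Camp, Ltf, Ngp, Mmp9 and Elane were also lower in every poly(I:C) library, as were 14.3% of all tested genes. The other markers, among them S100a8, S100a9 and Ly6g, overlapped between the groups. All 12 had a negative log2 fold change, with adjusted p between 0.169 and 0.468 in edgeR. Among them S100a9, a calcium-binding protein gene of neutrophils, stood at 713, 188 and 203 CPM with poly(I:C), against 6679, 780 and 689 CPM with saline.
The 10 monocyte markers, all seen in every library, summed to 980, 413 and 508 CPM with poly(I:C), against 3003, 579 and 675 CPM with saline. The sums overlapped between the groups, and saline replicate 1 and poly(I:C) replicate 1 had the highest sum of their groups. Chil3 formed most of the sum in saline replicate 1, at 1635 CPM, followed by Hp at 445 CPM. F13a1 and Ms4a4c were highest in poly(I:C) replicate 1, at 282 and 76.1 CPM, against 278 and 13.9 CPM in saline replicate 1. The other monocyte markers were highest in saline replicate 1, Ccr2 narrowly, at 43.2 against 40.5 CPM in poly(I:C) replicate 1. The markers did not all point one way, with 7 negative and 3 positive log2 fold changes. Of the positive ones, Ms4a4c was called higher in edgeR (log2 fold change 2.82, adjusted p = 0.0460), and Ccr2 and Plac8 were not called. The 11 genes of the handling response, immediate early and heat shock genes that rise when tissue is dissociated, summed to 6267 to 7847 CPM with poly(I:C) and 6066 to 9149 CPM with saline, overlapping between groups. The part of these cells and of handling in the Il1b, Il1rn and Pycard values was not tested.

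The tested genes closest to Il1b in their centred log2 CPM profile over the 6 libraries, of 10671 compared, were Inpp1, Ccr2 and Nfkbid, with root mean square differences of 0.14, 0.14 and 0.17. Inpp1, the closest, had 17.4, 6.56 and 12.6 CPM with poly(I:C), against 15.1, 6.03 and 6.87 CPM with saline. Ccr2, the chemokine receptor that marks inflammatory monocytes, had 40.5, 21.2 and 29.9 CPM with poly(I:C), against 43.2, 13.5 and 15.5 CPM with saline. Nfkbid had 112, 53.5 and 73.1 CPM with poly(I:C), against 111, 45.8 and 51.9 CPM with saline.
For Il18 the closest were Trafd1, Luc7l3 and Trim21, each with a root mean square difference of 0.063 or 0.064, over the same libraries and number of genes. Trafd1 had 256, 274 and 269 CPM with poly(I:C), against 176, 171 and 182 CPM with saline. Luc7l3 had 154, 146 and 156 CPM with poly(I:C), against 92.3, 107 and 101 CPM with saline. Trim21, the gene of a cytosolic antibody receptor and ubiquitin ligase, had 52.2, 59.3 and 61.3 CPM with poly(I:C), against 34.5, 35.0 and 34.3 CPM with saline.

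**Figure D4:**
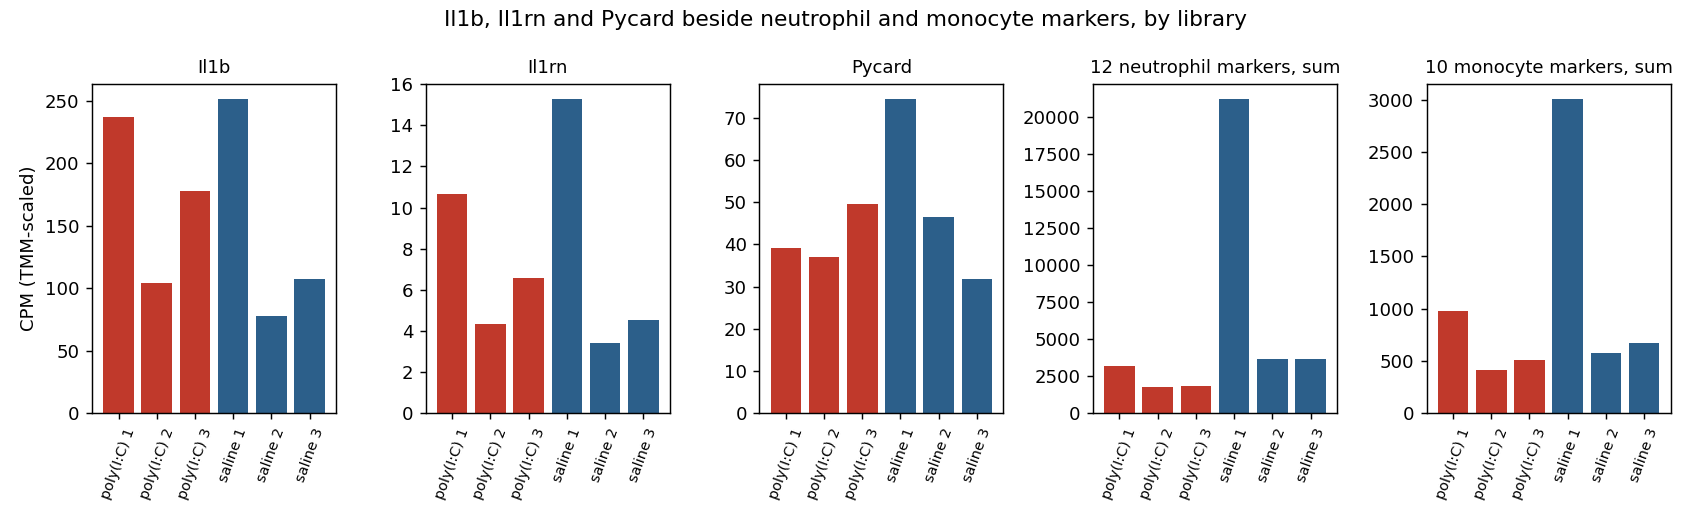
CPM after TMM scaling (y axes, from 0) of Il1b, Il1rn and Pycard and of the sums of 12 neutrophil and 10 monocyte markers in each poly(I:C) library (red) and each saline library (blue). Saline replicate 1 is the highest bar in all 5 panels, at 21170 CPM for the neutrophil sum. Chil3 alone holds 1635 of the 3003 CPM of its monocyte sum.

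Genes around the complex were taken from 6 lists of 76 genes, of which 62 were tested. In edgeR 6 of the 62 rose and 0 fell, beside 0.883% and 0.0747% of all tested genes, and their median log2 fold change was −0.03. The lists, too, were chosen with earlier results of these data known, so these counts describe the lists only.
Among 13 tested genes of the other sensors, Aim2, Naip5 and Nlrc5 rose, and the median log2 fold change of the list was 0.43. Aim2, which detects cytosolic double-stranded DNA, had 245, 250 and 267 CPM with poly(I:C), against 168, 182 and 181 CPM with saline, and rose 1.44-fold (adjusted p = 0.0360). Naip5, which binds bacterial flagellin, had 211, 199 and 224 CPM with poly(I:C), against 137, 133 and 139 CPM with saline, and rose 1.55-fold (adjusted p = 0.0147). The Naip genes are close paralogs, so counts may be shared among them. Nlrc5, better known as the transactivator of MHC class I genes than as a sensor, had 47.3, 43.1 and 42.2 CPM with poly(I:C), against 13.1, 5.72 and 9.20 CPM with saline, and rose 4.73-fold (adjusted p = 0.0185).
Their calls rested on few libraries. Leaving out each library in turn, Aim2 was called only without poly(I:C) replicate 1, Naip5 only without poly(I:C) replicate 1 or 2, and Nlrc5 only without saline replicate 1 or 2, while all kept their direction. With all 6 libraries, Aim2 also missed the threshold under RLE scaling (adjusted p = 0.0591) and with no filter on low counts (adjusted p = 0.0518).

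A further list of 15 tested genes mixes cofactors and regulators of NLRP3 with Toll-like receptor genes of the priming step and other defence genes. Of these Irgm1, Tlr3 and Gbp2 rose, and the median log2 fold change was 0.0096. Irgm1, the gene of an interferon-inducible GTPase of antimicrobial defence whose human relative IRGM restrains NLRP3, had 240, 196 and 225 CPM with poly(I:C), against 54.0, 56.7 and 65.9 CPM with saline (3.74-fold, adjusted p = 0.00104). It alone of the called genes, Il18 included, was called in each of the 6 fits that left out a library. Tlr3, which encodes the endosomal receptor for double-stranded RNA, had 199, 160 and 177 CPM with poly(I:C), against 85.7, 86.7 and 95.2 CPM with saline (2.00-fold, adjusted p = 0.00732). Its call was lost when poly(I:C) replicate 3 or saline replicate 2 was left out. Gbp2, a guanylate-binding protein that helps expose bacterial lipopolysaccharide to caspase-11, had 36.3, 17.6 and 21.1 CPM with poly(I:C), against 7.24, 4.56 and 6.07 CPM with saline (4.20-fold, adjusted p = 0.0405). It was no longer called when poly(I:C) replicate 3, saline replicate 2 or saline replicate 3 was left out.

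The remaining lists had no called gene in edgeR, with 3 of 9 tested caspase, gasdermin and membrane rupture genes, 0 of 1 other IL-1 ligand, 3 of 8 receptors and 4 of 16 signalling genes at an unadjusted p under 0.05 in either direction, against 21.3% of all tested genes. Ninj1, whose product ruptures the membrane after gasdermin pores form, had 47.0, 49.4 and 40.1 CPM with poly(I:C), against 56.4, 67.8 and 72.5 CPM with saline (log2 fold change −0.53, SE 0.13, adjusted p = 0.130). Ninj1 values were separate between the groups. It passed as lower in DESeq2 (adjusted p = 0.0109) and limma-voom with quality weights (adjusted p = 0.00635). Il36g, the only other ligand tested, had 5.17, 1.03 and 2.19 CPM with poly(I:C), against 22.5, 2.77 and 3.86 CPM with saline, and was again highest in saline replicate 1.
On the receptor side, Il1rap, the accessory chain shared by receptors for IL-1, IL-33 and IL-36, had 30.5, 22.9 and 28.1 CPM with poly(I:C), against 19.9, 14.1 and 16.1 CPM with saline (log2 fold change 0.70, SE 0.17, adjusted p = 0.131). Il1rl1, the gene of the IL-33 receptor ST2, had 10.5, 11.1 and 9.95 CPM with poly(I:C), against 13.3, 15.3 and 17.2 CPM with saline (log2 fold change −0.54, SE 0.15, adjusted p = 0.155). These receptor genes were separate in opposite directions and neither passed in edgeR with all 6 libraries. Il1rap passed in DESeq2 (adjusted p = 0.0148), in limma-voom (adjusted p = 0.00862) and in edgeR without replicate 1 of each group (adjusted p = 0.0372). Il1rl1 passed as lower in DESeq2 (adjusted p = 0.0322) and limma-voom (adjusted p = 0.0123).
Of the signalling genes, Rela, an NF-kB subunit, and Irak4, the first kinase behind MyD88, had log2 fold changes of −0.43 (SE 0.11, adjusted p = 0.140) and −0.31 (SE 0.091, adjusted p = 0.166). Each was lower in every poly(I:C) library than in any saline library, and neither passed in edgeR. Rela passed as lower in DESeq2 (adjusted p = 0.0280) and limma-voom (adjusted p = 0.0106), and Irak4 in limma-voom alone (adjusted p = 0.0183).

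**Figure D5:**
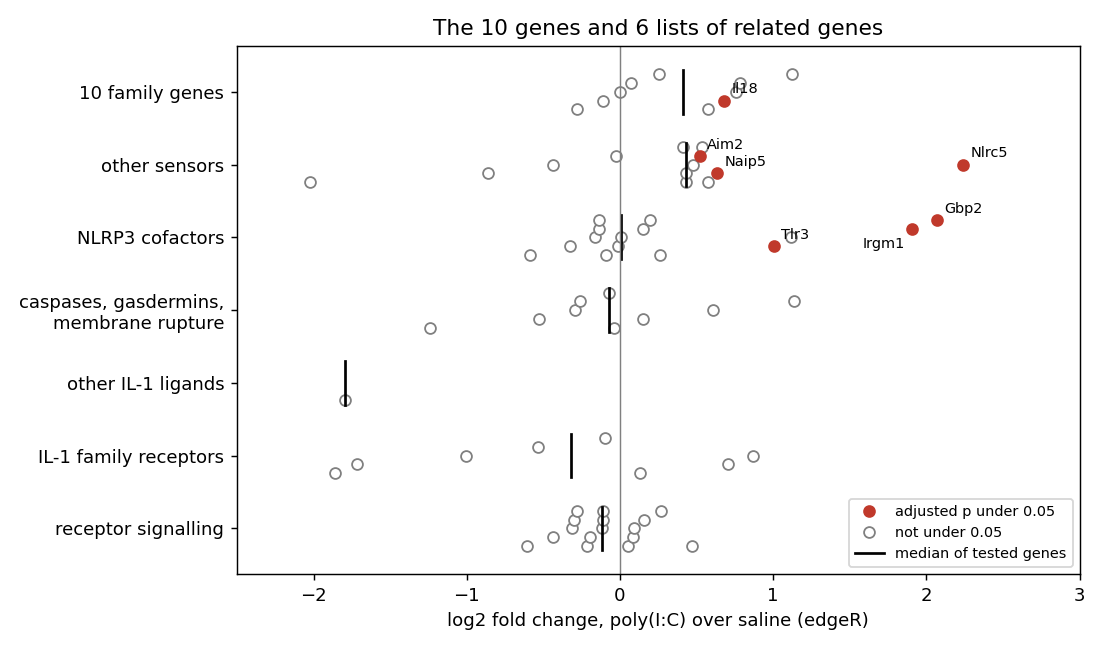
Log2 fold change of poly(I:C) over saline (x axis, edgeR) for the 10 genes and the tested genes of 6 related lists, with called genes filled in red, others open, and bars at the list medians. Red points are Il18, Aim2, Naip5, Nlrc5, Tlr3, Irgm1 and Gbp2, all to the right of 0.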

How the data were processed

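RNA was amplified to full-length cDNA with a SMARTer kit and made into Nextera XT libraries, per the labels' protocols, steps that amplify by PCR, so reads, not molecules, are counted. The authors deposited raw read counts for each gene symbol and library, without normalisation or pooling. The tools fastp, HISAT2 and HTSeq and the build GRCm39 are named, per the submitters' processing notes, with settings not given in the sources used here. Reads of overlapping genes on opposite strands cannot be told apart. From the counts, poly(I:C) was compared with saline in edgeR 4.0.16 (R 4.3.3): filterByExpr within groups, TMM scaling, and the quasi-likelihood F test over all 6 libraries with no covariate, with Benjamini-Hochberg adjustment over all 14727 tested genes and calls under 0.05. Standard errors were obtained as |log2 fold change| over √F. Profiles were compared on log2(CPM + 0.5) among tested genes averaging at least 5 CPM. The genes and lists were chosen with earlier results of these data known. Named were all 10 genes, of each list the called genes and the 2 with the smallest p, and the 3 profiles most like Il18 and Il1b, and markers were summed. S100a9, Csf3r, the neutrophil markers named as lower and the monocyte markers named singly were chosen after their values were seen. Of 76 list genes 8 had no row under the symbol used and are not analysed here. Libraries of 1 group differed beyond sampling noise (chi-square per gene 22.3 to 124), so none was treated as a duplicate. Alternatives were 3 other scalings, 2 other filters, DESeq2 1.42.0, limma-voom (limma 3.58.1) with quality weights, a replicate block, and fits without libraries. The fit was tested on simulated data.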

Additional observations from a re-analysis of the deposited data

How the results depend on the processing

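Il18, Casp1, Casp4, Il1a and Il18bp kept a positive log2 fold change in all 15 alternatives, and no gene of the 10 was called lower in any of them. The count of the 10 genes called higher was 1 with all libraries under edgeR, 4 in DESeq2, 5 in limma-voom with quality weights, 3 without replicate 1 of each group, and 0 to 1 without single libraries. Adjusted p of Casp1, Il1a and Il18bp was 0.0108, 0.0153 and 0.00683 in DESeq2, and 0.00894, 0.0170 and 0.0181 in limma-voom. Casp4 had adjusted p of 0.0532 in DESeq2 and 0.0115 in limma-voom. All genes called higher numbered 577 in DESeq2, 1268 in limma-voom and 355 without replicate 1 of each group, against 130 in the edgeR fit, and 51 to 167 without single libraries. Genes called lower numbered 566, 1608 and 214 in the same order, 18 with no filter, 89 with the replicate block, and 0 to 20 without single libraries, against 11. Of the list genes, 10 in DESeq2, 15 in limma-voom, 10 without replicate 1 of each group, and 1 to 6 without single libraries were higher, against 6; 5, 10 and 1 were lower in the first 3 of these, against 0. The cause was not tested. Adjusted p of Il18 ran from 4.31e-08 in DESeq2 to 0.130 without poly(I:C) replicate 3. Signs turned for Gsdmd, Nlrp3, Pycard, Il1rn and Il1b, the genes whose groups overlapped. Gsdmd and Nlrp3 lay near 0, while Pycard, Il1b and Il1rn had wide standard errors of 0.30, 0.48 and 0.61 with all 6 libraries. Gsdmd was −0.015 with RLE scaling and in DESeq2, −0.014 with the block, −0.0081 with no filter, −0.018 in limma-voom, and −0.15 to 0.16 without single libraries. Nlrp3 was −0.012 in limma-voom and −0.0060 to 0.13 without single libraries. Pycard was 0.21 in limma-voom, 0.17 without replicate 1 of each group, and −0.53 to 0.09 without single libraries. Il1rn was 0.43 in limma-voom, 0.11 with the block, 0.47 without replicate 1 of each group, and −0.49 to 0.83 without single libraries, and Il1b was −0.053 to 0.89. The replicate block called 1 of the 10 genes, Il18 (adjusted p = 0.0262), 6 list genes and 171 genes higher. Same-numbered libraries deviated from their group means with correlations of 0.15, −0.09 and 0.25, and poly(I:C) replicate 1 correlated best with saline replicate 2 (0.16), so the numbers are not shown to pair libraries. RLE scaling called 5 list genes higher, without Aim2. The lowest value of the 10 genes, 3.43 CPM for Il1rn in saline replicate 2, is 119 counts. It lies above the 3 counts that a count of 0 allows.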
